A study of Mus musculus with 2 samples.

Results

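Ion channels and solute carriers set the electrical and metabolic traffic across the membranes of a pacemaker cell, and 36 of the 1483 ISL1 peaks analysed had the transcription start site (TSS) of such a gene as their nearest. They fell under 25 genes: 9 channel genes with 9 peaks and 16 carrier genes with 27 peaks. Members were taken by gene symbol alone, at any distance from the TSS, and the gene with the nearest TSS need not be the one a peak acts on. The symbols covered potassium, sodium, calcium, HCN, TRP and chloride channels, glutamate and GABA receptor channels and the SLC carriers. Hcn4, Cacnb2 and Slc8a1 were left out by that rule; in this list Hcn4 and Slc8a1 had 0 peaks and Cacnb2 had 1.

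The data came from 1 ISL1 immunoprecipitate of sinoatrial node cells, the pacemaker cells of the heart, and the series also held 1 input library, which was not analysed here. Both libraries were from ICR mice of genotype Hcn4-H2BGFP at postnatal day 1 to 3, sorted for the green fluorescent nuclear reporter. The reporter marks cells in which Hcn4 is active, so the sort defines the cells by that gene. A peak list holds no expression, and the labelled cell type was not checked against marker genes. There was no replicate and no second condition: every value below is a description of 1 library, no difference was tested, and the intervals cover counting error only.

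ISL1 is a LIM-homeodomain transcription factor that marks cardiac progenitors and stays on in the sinoatrial node, where it is needed for pacemaker function. A channel gene codes for a pore or for a subunit that tunes one, and nodal cells differ from working myocytes in which of them they use. HCN, calcium and potassium currents shape the slow depolarisation between beats, and the inward rectifier current that holds working myocytes at rest is weak in the node. SLC carriers move amino acids, ions, fatty acids and other solutes across the plasma membrane or the membranes of organelles.

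Channel and carrier genes were nearest to a peak about as often as other genes. Of 593 protein-coding genes of these families, 25 were nearest to a peak (4.22%, exact Clopper-Pearson 95% interval 2.75 to 6.16), beside 3.80% of all 21031 protein-coding genes. With peaks within 100 kb only, 15 of the 593 remained (2.53%), beside 2.58% of all genes. The channels (9 of 219, 4.11%) and the carriers (16 of 374, 4.28%) had shares close to each other. A share this near to that of all genes is no result about these families, and the account that follows is of single loci.

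1 channel peak lay near a start site. It fell in intron 1 of 15 of Kcnh7, 0.952 kb downstream of the TSS, at chr2:63021320-63021464 (mm9), with a score of 10.9. Kcnh7 codes for a potassium channel of the ether-a-go-go related group, to which the cardiac repolarising channel Kcnh2 also belongs. The 250 bases upstream of the RefSeq start of Kcnh7 are shown as the nearest stretch of sequence held in the reference used, at chr2:63184288-63184537 of GRCm38.p6, minus strand. That build differs from the mm9 of the peaks. By the deposited distance the peak begins downstream of the TSS, so the stretch does not hold it.

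Kcnh7 promoter: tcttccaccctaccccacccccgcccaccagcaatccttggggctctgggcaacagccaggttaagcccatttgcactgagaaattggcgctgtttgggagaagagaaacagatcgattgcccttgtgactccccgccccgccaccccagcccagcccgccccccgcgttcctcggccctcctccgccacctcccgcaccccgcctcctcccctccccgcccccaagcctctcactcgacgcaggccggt

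The stretch holds 67.6% G and C, above the median of 52.4% over 32851 RefSeq promoter windows of the same length. Searched on both strands, it held none of 4 short motifs, so no letter stands in capitals. These were the homeodomain motifs TAATTA and CTAATG, the TALE motif TGACAG and the GATA motif AGATAA. The ends of some can overlap, as those of AGATAA and TAATTA do. The share of all windows with each was 4.84%, 6.36%, 15.9% and 9.99% in that order. No match says only that these letters are not in this window. Peak sequences in mm9 were not used here.

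The peak score is the authors' own number per peak, with no stated unit, and it is used here only within this list. Over the whole list it ran from 8.21 to 84.8 with a median of 15.1. Every score equals a whole multiple of 1.3683 once that product is rounded to 3 digits, and 1.3683 is called 1 step here. If 1 step is 1 tag, the lowest member score of 9.58 rests on 7 tags and the highest of 30.1 on 22. Under that reading the exact Poisson 95% interval of a score of 9.58 ran from 3.85 to 19.7, and that of a score of 30.1 from 18.9 to 45.6. Most members therefore cannot be ranked against each other by score.

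Most channel and carrier peaks were of moderate height. Their median score was 13.7 (order-statistic 95% interval 12.3 to 15.1), beside 15.1 over all peaks, a gap of 1 step. Of the 36, 10 stood above the list's median (27.8%), 6 at it (16.7%) and 20 below it (55.6%). Because scores are tied, the whole list split into 38.2% above, 12.9% at and 48.9% below. A score at or above the 75th percentile of the list was held by 6 of them (16.7%, exact interval 6.37 to 32.8), beside 29.4% of all peaks. These 6 lay nearest Slc5a7, Slc6a15, Kcnq5, Gabrg3 and Slc25a21, which had 2. The channel peaks alone had a median of 12.3 and the carrier peaks 13.7.

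**Figure D1:**
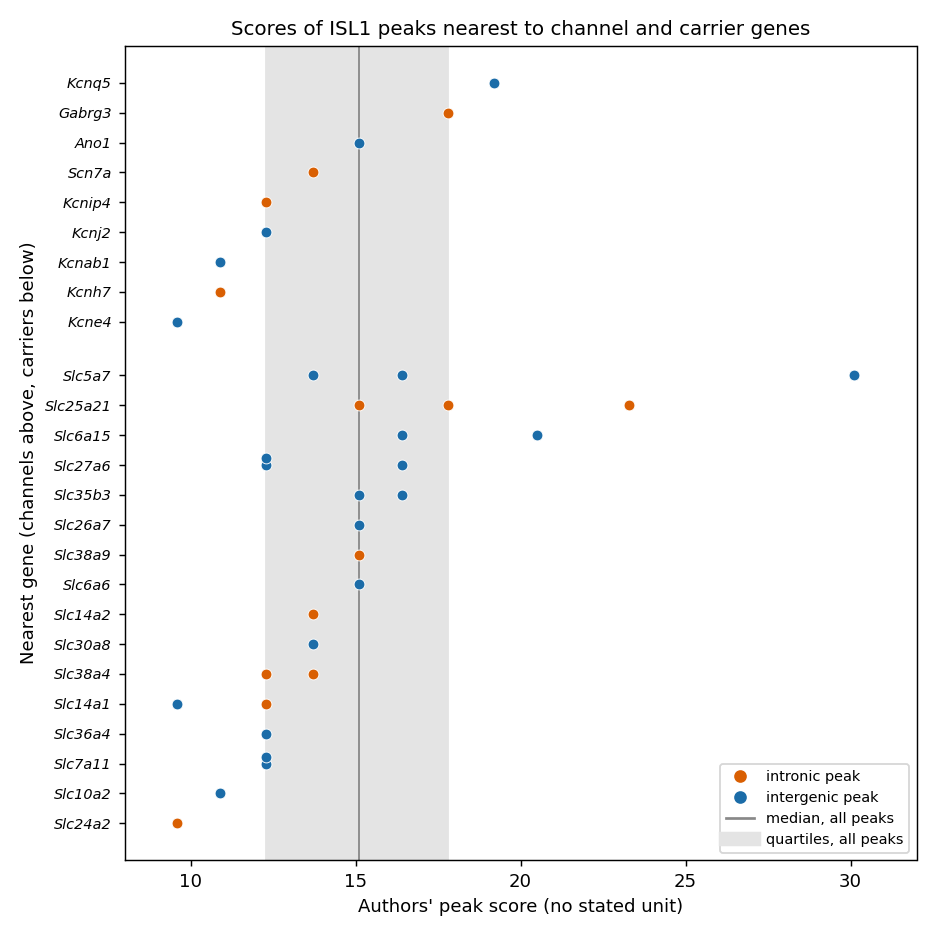
Each point is 1 ISL1 peak; the horizontal axis is the authors' peak score (no stated unit), the vertical axis the nearest gene, with channels above and carriers below; orange is intronic and blue intergenic, the line is the median of all 1483 peaks (15.1) and the band its quartiles (12.3 and 17.8). Peaks above the band lay nearest Slc5a7 (30.1), Slc25a21 (23.3), Slc6a15 (20.5) and Kcnq5 (19.2), and each channel gene has 1 point.

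Among the voltage-gated potassium channel genes 2 of 40 were nearest to a peak. Kcnq5 had the highest channel peak, of score 19.2, intergenic at chr1:22032339-22032483 (mm9), 80.4 kb upstream of the TSS. Kcnq5 codes for a subunit of the M-type potassium channels, which open near the resting potential and close when muscarinic receptors are activated. The other of the 2 was Kcnh7, described above. Kcnq1 and Kcnh2, whose channels carry delayed rectifier currents of the heart, were nearest to none.

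Auxiliary subunits of potassium channels were nearest to a peak in 3 of 13 genes, and these were peaks of low score. Kcnip4 codes for a calcium-binding protein that assembles with the transient outward channels. Its peak of score 12.3 lay in intron 1 of 7, 16.3 kb downstream of the TSS, at chr5:48974592-48974736 (mm9). Kcnab1, the gene of a beta subunit of Shaker-type channels, had an intergenic peak of score 10.9 at 53.9 kb upstream. Kcne4 codes for a single-span subunit that regulates voltage-gated potassium channels, and its peak of score 9.58 lay 103 kb downstream, in intergenic DNA. With 13 genes in the group the exact interval of the share of 23.1% ran from 5.04% to 53.8%, above the 3.80% of all genes. The share depends on the grouping, which took only the symbols Kcne, Kcnip, Kcnab and Kcnrg. Auxiliary subunit genes with Kcnmb symbols were counted among the 12 calcium- or sodium-activated genes, of which 0 were nearest to a peak. With them in the auxiliary group its share would be lower. The auxiliary group was 1 of 13 channel groups and 51 SLC families looked at, and no test was run.

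The inward rectifier genes held 1 member of 15. Kcnj2 codes for the channel of the resting current of working myocytes. Its peak had a score of 12.3 and lay at chr11:111076436-111076580 (mm9), 149 kb downstream of the TSS in intergenic DNA. In gene order Kcnj2 stands between Kcnj16 and Sox9, and neither of these was nearest to a peak. The next peak of the list was 746 kb away.

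Sodium, chloride and GABA receptor channels gave 1 gene each. Scn7a codes for an atypical sodium channel that is linked to sodium sensing. Its peak, of score 13.7, lay in intron 1 of 24, 19.4 kb downstream of the TSS, at chr2:66603472-66603616 (mm9). Ano1 codes for a calcium-activated chloride channel, and its peak of score 15.1 lay 31.8 kb upstream, at chr7:151956271-151956415. Gabrg3, the gene of a gamma subunit of the GABA-A receptor, had a peak of score 17.8 deep in its own body. This peak lay in intron 5 of 9, 519 kb downstream of the TSS, at chr7:64123278-64123422. Both genes are on chromosome 7, and their peaks lay 9.10 Mb (Gabrg3) and 8.06 Mb (Ano1) from the next peak of the list.

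Several channel groups had no gene nearest to a peak. Among them were the 10 calcium channel pore genes, the 15 calcium auxiliary genes without Cacnb2, the 14 two-pore potassium genes, the 12 calcium- or sodium-activated potassium genes, the 23 TRP genes and the 17 ionotropic glutamate receptor genes. For the groups named here a count of 0 allows a wide range: the upper exact 95% bounds ran from 14.8% for TRP genes to 30.8% for calcium channel pore genes. These counts go by nearest TSS and do not mean that the genes held no peak. The bodies of Kcnma1, Trpm3 and Grik2, which belong to these groups, held peaks listed under other genes. Of a list of 41 channel genes of the pacemaker and cardiac action potential, 2 were nearest to a peak, Kcnj2 and Ano1 (4.88%, beside 3.80% of all genes). Within 100 kb only 1 of them, Ano1, remained. The list was drawn up with earlier results of these data known. It lacks Hcn4 and Cacnb2, which the rule left out, and Cacnb2 was nearest to 1 peak. Kcnma1 is on the list but is not counted among the 2. Among the genes of the list that were nearest to none were the calcium channel genes Cacna1c, Cacna1d and Cacna1g and the inward rectifier genes Kcnj3 and Kcnj5.

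The carriers fell in 13 of 51 SLC families, and their leading locus was that of Slc5a7. Slc5a7 codes for the high-affinity choline transporter, which supplies choline for acetylcholine synthesis in cholinergic nerve endings. Its 3 intergenic peaks lay within 18.8 kb of each other, between 135 and 153 kb downstream of the TSS. The middle one, at chr17:54298143-54298287 (mm9), had a score of 30.1, the highest of all members, and 42 peaks of the whole list scored higher. The flanking ones scored 16.4 (chr17:54284983-54285127) and 13.7 (chr17:54303665-54303809). The gap between 30.1 and 13.7 is 12 steps, and their Poisson intervals (18.9 to 45.6 and 6.56 to 25.2) overlapped.

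Slc25a21 was the one member with 3 peaks at or above the list's median score. It codes for a mitochondrial carrier of oxodicarboxylates, and all 3 peaks were in intron 1 of 9. A peak of score 23.3 lay 21.6 kb downstream of the TSS, at chr12:58239998-58240142 (mm9). A pair of peaks with scores of 17.8 and 15.1 lay 162 and 163 kb downstream, at chr12:58099407-58099551 and chr12:58099019-58099163. The pair was 0.388 kb apart from centre to centre, a spacing within the 100 to 400 bp to which the chromatin was sheared. With peaks within 1 kb merged, 35 member peaks were left.

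Amino acid and taurine carriers made up 6 members. Slc6a15, a neutral amino acid transporter gene of neurons, had intergenic peaks of score 20.5 and 16.4, at 364 and 249 kb downstream (chr10:103194297-103194441 and chr10:103079337-103079481, mm9). Slc6a6 codes for the taurine transporter; its peak of score 15.1 lay on a repeat of the MaLR class, 66.6 kb upstream. Slc7a11, the gene of the cystine-glutamate exchanger, had intergenic peaks at 105 and 209 kb downstream, both of score 12.3.

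Both SLC38 members had peaks inside their own bodies. Slc38a9 codes for a lysosomal arginine sensor of the mTORC1 pathway. Its peak, of score 15.1, was the closest of any carrier to a TSS: intron 2 of 14, 13.4 kb downstream, at chr13:113464345-113464489 (mm9). Slc38a4, a gene of the system A amino acid transporters, had peaks of score 13.7 and 12.3 that were 3.48 kb apart in intron 13 of 15, 51.6 and 55.1 kb downstream. Slc36a4, a further amino acid transporter gene, had an intergenic peak of score 12.3 at 39.4 kb upstream.

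The urea transporter genes Slc14a1 and Slc14a2, the full SLC14 family of 2, are neighbours and were both nearest to peaks. Their 3 peaks lay in a stretch of 170 kb on chromosome 18 (78294046 to 78464327, mm9), so they are 1 locus. A peak of score 13.7 lay in intron 3 of 21 of Slc14a2, inside the longer transcript but 61.1 kb upstream of the nearest annotated start of that gene. A peak of score 12.3 (78353076 to 78353220) lay 14.3 kb upstream of the nearest annotated start of Slc14a1 and in intron 18 of 21 of Slc14a2. The lowest, of score 9.58 (78294046 to 78294190), was intergenic, 26.0 kb downstream of the annotated start of Slc14a1 nearest to it. These peaks of Slc14a1 lay 59.0 kb apart, more than both distances together. The distances are therefore to different annotated starts of that gene.

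Slc27a6 belongs to the fatty acid transport proteins and is expressed in heart. Its 3 intergenic peaks all lay upstream, at 53.0, 67.1 and 171 kb, with scores of 12.3, 16.4 and 12.3. Their places on chromosome 18 (mm9) were 58662819 to 58662963, 58648766 to 58648910 and 58545136 to 58545280, and the last lay on an L2 repeat. Its neighbours in gene order, Fbn2 and Isoc1, were nearest to 1 peak each. Of a list of 20 carriers with known roles in heart or its innervation, 3 were nearest to a peak: Slc27a6, Slc6a6 and Slc5a7 (15%, beside 3.80% of all genes). This list was drawn up with earlier results of these data known, so its share cannot be weighed against that of all genes. Within 100 kb 2 of the 3 remained, Slc27a6 and Slc6a6, and the other 17 genes were nearest to none.

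Ion, zinc, nucleotide and bile acid carriers gave 1 gene each from 5 families. Slc30a8, the zinc transporter gene of insulin granules, had an intergenic peak of score 13.7 at 70.9 kb downstream. Slc24a2 codes for a potassium-dependent sodium-calcium exchanger and had a peak of score 9.58 in intron 2 of 10, 141 kb downstream. Slc26a7, an anion transporter gene, had a peak of score 15.1 at 235 kb downstream. Slc35b3, which supplies the sulfate donor to the Golgi, had peaks of score 16.4 (chr13:39495163-39495307, mm9) and 15.1, 8.47 kb apart and 442 and 451 kb upstream. Slc10a2 codes for the ileal bile acid transporter, and its peak of score 10.9 was the farthest of all members, 1660 kb upstream. For the last 3 the adjacent genes Runx1t1, Ofcc1 and Efnb2 were themselves nearest to 4, 3 and 9 peaks.

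**Figure D2:**
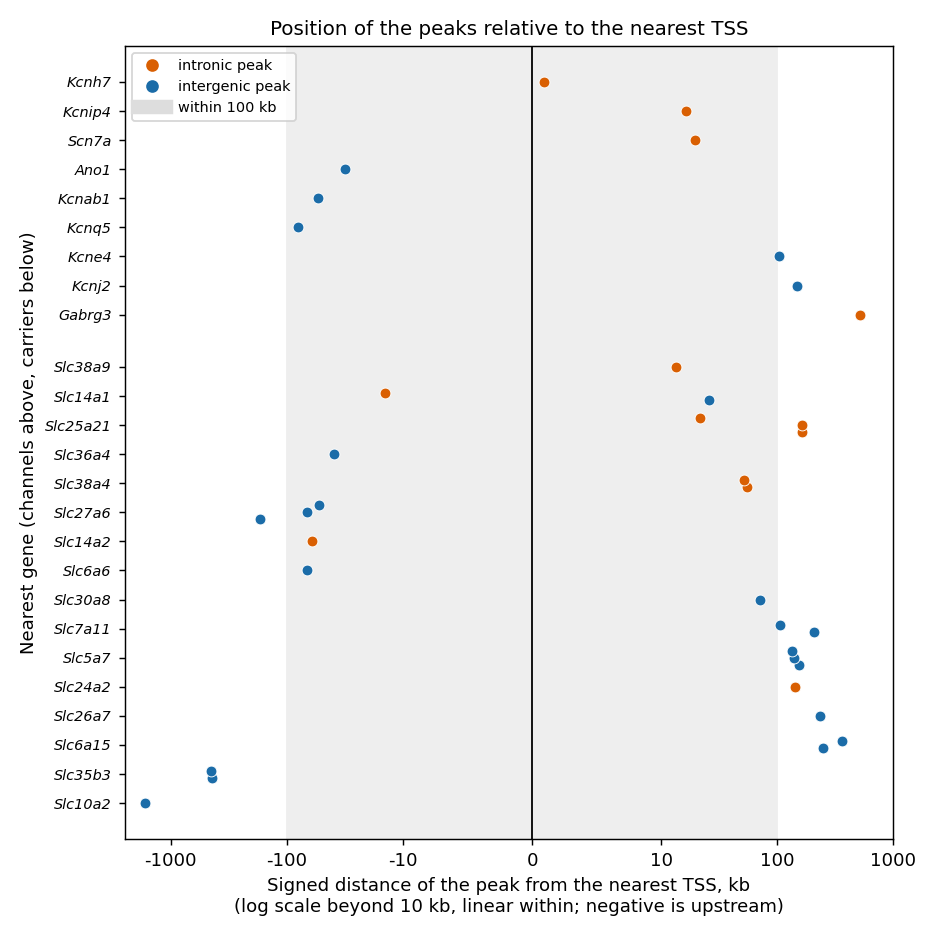
Each point is 1 peak; the horizontal axis is its signed distance from the nearest TSS in kb (log scale beyond 10 kb, linear within, negative upstream), the vertical axis the nearest gene, with points of 1 gene shifted slightly apart; orange is intronic, blue intergenic, and the band marks 100 kb on either side. Kcnh7 at 0.952 kb is the sole point within 10 kb, and Slc10a2 at 1660 kb upstream is the farthest.

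Positions of the members spread much as those of the whole list. The median distance to the TSS was 91.7 kb (order-statistic 95% interval 53.9 to 153), beside 83.4 kb for all peaks. Within 100 kb lay 18 of the 36 (50.0%, exact interval 32.9 to 67.1), beside 55.4% of all peaks, and beyond 200 kb lay 8 (22.2%), beside 24.7%. Within 10 kb lay 1 (2.78%, 0.0703 to 14.5), beside 11.4%. No member carried the promoter annotation, and 0 of the 27 carrier peaks lay within 10 kb, which allows a share of up to 12.8% at the upper exact bound.

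By annotation 13 members were intronic (36.1%, exact interval 20.8 to 53.8), beside 40.8% of all peaks, and 23 intergenic (63.9%), beside 53.8%. Of the 13 intronic ones, 12 were inside the gene they are listed under, which is 33.3% of members, beside 33.2% of all peaks. The exception was the Slc14a1 peak in Slc14a2. Upstream of the TSS lay 13 (36.1%), beside 41.2%. A repeat was under 2 of the 36 (5.56%), beside 7.82%. Each background share lay within the members' exact interval.

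**Figure D3:**
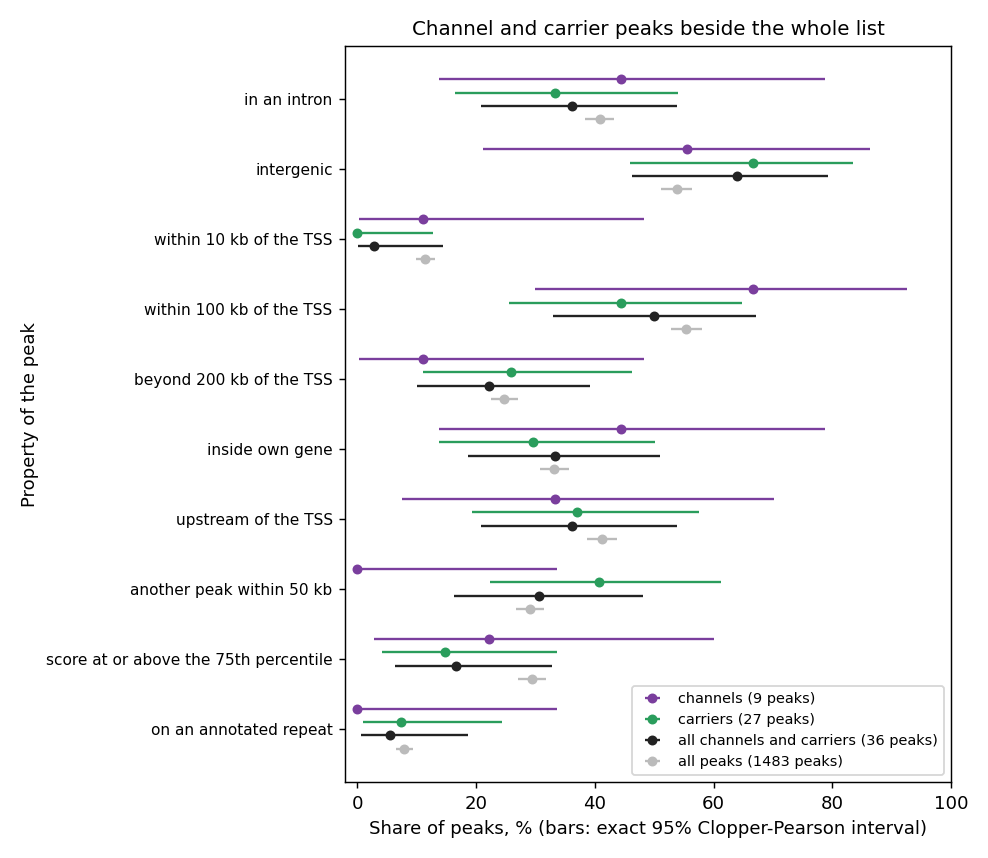
Points are shares of peaks in percent (horizontal axis) with 10 properties on the vertical axis, bars are exact 95% Clopper-Pearson intervals, and colours mark channels, carriers, both together and the whole list of 1483 peaks. The intervals of channels and carriers together hold the whole-list share for each property, for example 36.1% beside 40.8% in introns. For another peak within 50 kb close peaks count each other, so those bars are too narrow.

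With each peak assigned to the nearest TSS, each of the 9 channel genes had 1 peak, and 8 of the 16 carrier genes had 2 or 3, adding up to 19 peaks. The difference was not tested, and the body of the channel gene Kcnma1 held 3 peaks that are listed under another gene. Over both together 8 of 25 genes had 2 or more (32%), beside 27.4% of the 1003 nearest genes of the list. Another peak within 50 kb was found for 0 of 9 channel peaks (upper exact bound 33.6%) and for 11 of 27 carrier peaks (40.7%, exact interval 22.4 to 61.2), beside 29.1% of all peaks. Close peaks count each other here: the 11 lay under Slc5a7, Slc25a21, Slc27a6, Slc35b3 and Slc38a4 alone. The exact intervals take peaks as independent and are too narrow for this property, so they do not compare channels with carriers. The intervals of the other peak shares and of the medians take peaks as independent too. Where peaks of 1 gene share a property, as the 3 intronic peaks of Slc25a21 do, those intervals can also be too narrow. Of the 11 spacings between adjacent peaks of 1 gene, 6 were under 50 kb, and they ran from 0.388 kb in Slc25a21 to 141 kb in the same gene.

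**Figure D4:**
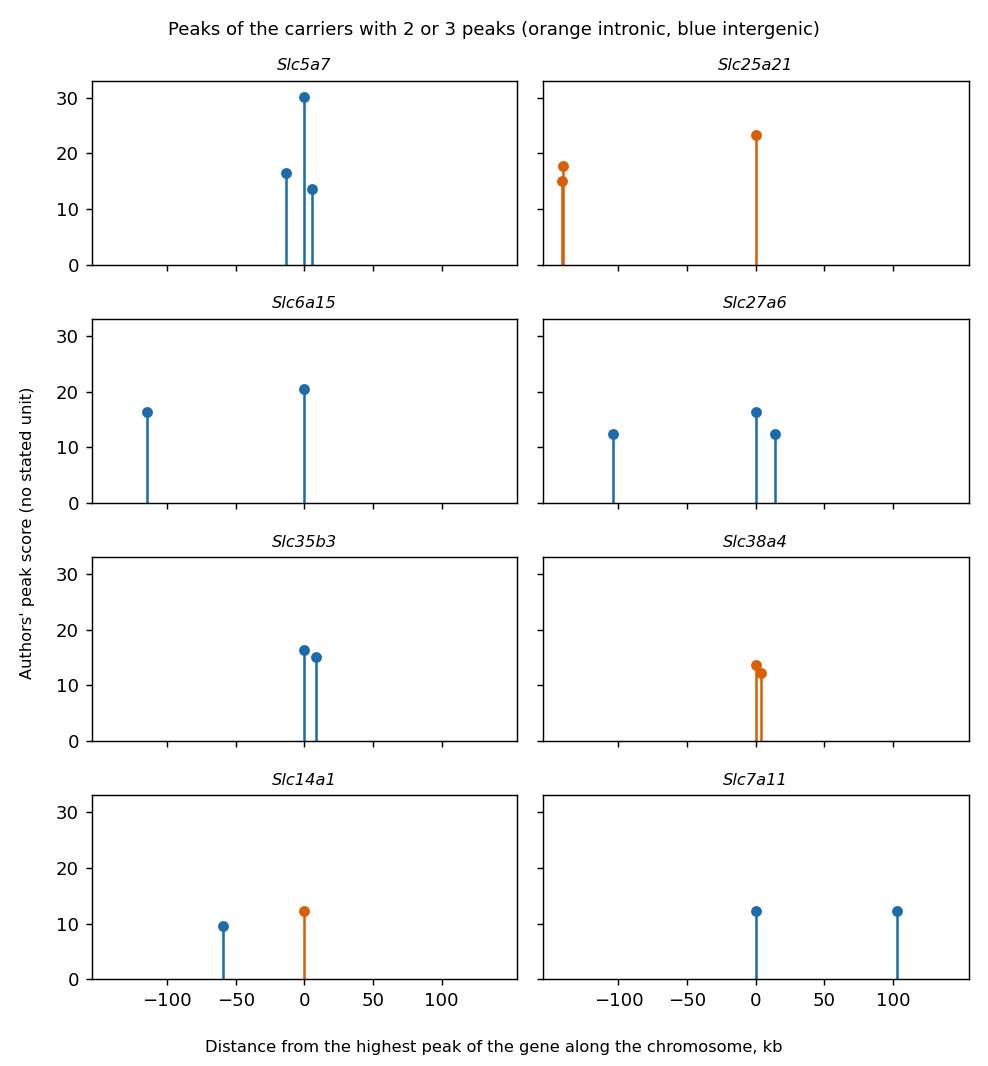
Each panel is 1 of the 8 carrier genes with 2 or 3 peaks; the horizontal axis is the distance along the chromosome from the gene's highest peak in kb (the first of equals in Slc7a11), the vertical axis the authors' peak score, starting at 0. The 3 peaks of Slc5a7 lie within 18.8 kb, while those of Slc25a21 form a close pair and a single peak 141 kb away.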

How the data were processed

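ISL1 immunoprecipitate and input came from sorted neonatal sinoatrial node cells. Fixation, per the labels' protocols, used 2 mM disuccinimidyl glutarate and then 1% formaldehyde, with shearing to 100 to 400 bp; the first agent also fixes proteins to each other, so a peak need not be direct DNA contact. Bowtie, HOMER and mm9 are named per the submitters' processing notes, without versions. Per the file headers, HOMER annotated a table named after peaks against an input. Calling settings, use of the input and total depth were not given in the sources used here. Among its columns the deposited peak score, the deposited focus ratio (a fraction) and the deposited distance to the TSS (in bp, negative upstream) are the authors' values. Each peak spans 144 bp. The focus ratio served as a filter in 1 alternative.

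Peaks were selected by the symbol of the nearest gene. Genes and transcripts were matched to RefSeq (GRCm38.p6) by Entrez identifier and accession, and 25 of 25 members matched. That build gave names, host genes, gene order, the gene totals behind the shares of genes, and the promoter windows. Peak positions and distances to the TSS were the deposited ones in mm9. Shares have exact Clopper-Pearson and medians order-statistic intervals at the 95% level (Python 3.11.15, SciPy 1.17.1). With 1 library no test was run, and calculations were tested on simulated data. Coordinates were to be given for the 12 highest and 8 closest peaks (ties by gene name), for genes with 3 peaks and for listed pacemaker channels. The members and gene lists were chosen with earlier results of these data known. Score, repeat, merging, focus ratio, distance and host gene alternatives were tried.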

Additional observations from a re-analysis of the deposited data

How the results depend on the processing

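The counts of 36 peaks and 25 genes moved with the score minimum and the distance limit. At or above the median score of the list 16 peaks and 11 genes were left, and at or above the 75th percentile 6 peaks and 5 genes. With a focus ratio at or above the median 23 peaks were left. Within 100 kb of the TSS 15 genes were left and within 10 kb 1. The share of peaks within the distance limit was 2.78% at 10 kb, 25% at 50 kb and 77.8% at 200 kb, in place of 50.0% at 100 kb. By construction the score minimums also raised the median score, to 16.4 and 19.9. The median distance was 158 kb among peaks at or above the median score, beside 91.7 kb for all members; the cause was not tested. The other 41 of 54 values tried stayed within 1.5 times of the count, or within the interval of the share or median; they came from leaving out repeats, merging, adding Cacnb2 or counting host genes, and from some results of the score, focus ratio and distance settings. The peaks added by host gene were picked for lying in gene bodies. With them the shares in introns and inside the own gene rose through that choice, each to 46.7%. Their distances stayed those to the TSS of the gene they are listed under. No paired analysis was possible because there was 1 library of each kind. Neither the depth of the library nor the spread between animals can be read from the list.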

Other observations

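Besides the peaks listed under them, channel and carrier genes held 9 peaks in their bodies that are listed under another gene with a nearer TSS. Counting them added 6 genes, for 31 in all. Kcnma1, the gene of the large-conductance calcium-activated potassium channel and a gene of the pacemaker channel list, held 3 of them within 13.1 kb in intron 18. Their scores were 12.3, 12.3 and 16.4, and 2 of them lay 0.806 kb apart (chr14:24207374-24207518 and chr14:24208180-24208324, mm9). They are listed under the predicted gene Gm10248, whose TSS is 294 to 307 kb away. A reading by nearest TSS alone therefore gives Kcnma1 no peak.

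The highest of the 9, of score 23.3, lay in intron 6 of 26 of Trpm3, a TRP channel gene, at chr19:22811519-22811663 (mm9). It lay on a repeat and is listed under the microRNA gene Mir204, 13.5 kb upstream of its TSS. The peak in Gabra4, of score 15.1, fell in the last of its 9 exons and is listed under Cox7b2. Grik2, a kainate receptor gene, held 1 of score 13.7 in intron 15 of 17. Among carriers, Slc16a10 held 1 of 13.7 in intron 2 and Slc10a7 1 of 9.58 in intron 10 of 11.

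Slc25a21 held 1 more peak, of score 15.1 in intron 4 of 10, which is listed under the neighbouring paired-box gene Pax9 at 134 kb downstream of the Pax9 TSS. With it the peaks in Slc25a21 spanned 310 kb. Which gene these peaks act on was not tested.

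No other peak lay within 1 Mb of 6 of the 36 member peaks (16.7%), beside 278 of all 1483 (18.7%). These were 4 of the 9 channel peaks (Gabrg3, Ano1, Kcne4 and Kcnq5; exact Clopper-Pearson 95% interval 13.7 to 78.8%) and 2 of the 27 carrier peaks (Slc6a6 and Slc36a4; 0.910 to 24.3%). The limit of 1 Mb was chosen after the values were seen and the difference between channels and carriers was not tested.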
